A study of Xenopus laevis with 2 samples.

Results

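The transcript profile of the tadpole heart without tcf21 depletion was taken from the control-morpholino library (control-MO) of the frog Xenopus laevis. It covered all 8879 transcript rows of the deposited table, and it was 1 of the 2 libraries of the study. The other came from sibling embryos that had received a tcf21 morpholino (Tcf21-MO). Morpholinos are synthetic oligomers that bind an RNA and keep it from being translated or spliced, and the control oligomer was injected at fertilization in the same way, so the hearts described here are from injected and not from untouched embryos. Each library was polyadenylated RNA from 70 to 100 pooled hearts at stage 44 to 45, when the tadpole heart beats and is divided into chambers. With 1 library per group there was no replicate, and the errors given are counting errors only. Rows were ranked by level, which is the read count divided by transcript length and scaled to sum to 1000000 over all rows, given below as TPM. The rule used the level itself, so the levels are a description and were not tested.

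A heart at this stage holds cardiomyocytes, which contract through sarcomeres of myosin thick filaments and actin thin filaments and draw their ATP largely from mitochondria. Around and between them lie endocardium, valve cells and the forming epicardium, and the chambers contain blood. Growth of the organ also needs ribosomes, whose proteins are encoded by short and heavily transcribed genes. Xenopus laevis carries many genes as an L and an S copy (homeologs) left by an old genome duplication, and a row of the table stands for 1 transcript of 1 copy.

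The tcf21 transcript had 3738 reads (258 TPM) in the Tcf21-MO library and 1266 reads (89.8 TPM) in the control-MO library. A morpholino need not lower the RNA it binds, so this value does not check the labels. The Tcf21-MO library held 17767221 reads and the control-MO library 17636925. At least 1 read was counted for 8597 rows in the Tcf21-MO library and for 8571 (96.5% of all rows) in the control-MO library. A transcript of median length (2008 bp) with no read in the control-MO library could still have had 0.112 TPM, the level of 3 reads, which is the one-sided 95% limit for a count of 0. The median row had 456 control reads, so counting error was small for most rows. Reads are not independent molecules after PCR, and the intervals do not cover variation between hearts or between pools.

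A small number of genes made up most of the profile. The 10 highest rows held 13.2% of the summed level, the 100 highest 51.1% and the 1000 highest 84.0%. The first 96 rows were enough for 50% of the level, and 443 rows for 75%. The median row had 15.5 TPM, with quartiles at 4.70 and 41.3 TPM, and the highest row had 24370 TPM. Rows at or above 1000 TPM numbered 160, or 1.8% of all rows, and held 61.5% of the level. A further 868 rows lay from 100 to under 1000 TPM, which put 11.6% of rows at or above 100 TPM. The largest class was that from 10 to under 100 TPM, with 4402 rows and 14.5% of the level. Rows under 1 TPM made up 12.1% of the table. Of the 160 rows at or above 1000 TPM, 153 belonged to 1 of 21 functional lists, whereas 294 of the 4402 rows from 10 to under 100 TPM did. Over all 8879 rows, 949 (10.7%) did. The lists were chosen with earlier results of these data known, so their high cover of the top rows is no independent result.

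**Figure D1:**
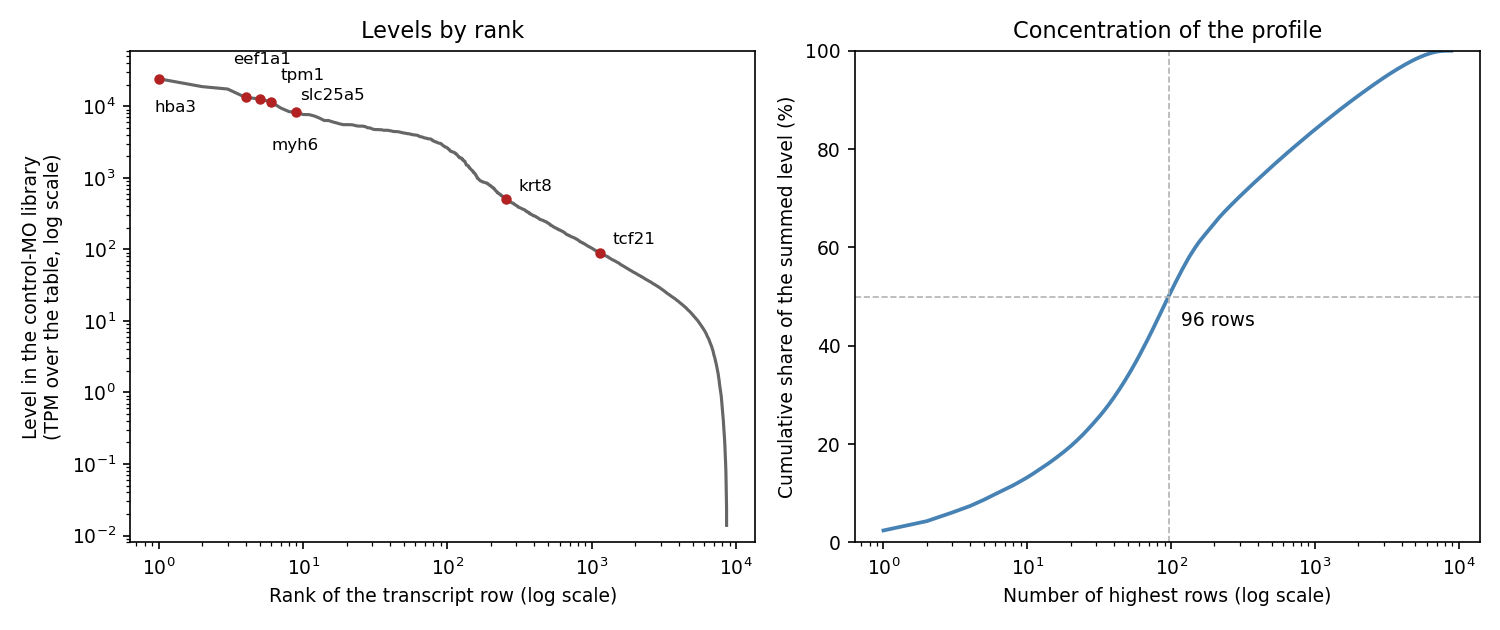
Left, level of each transcript row with at least 1 control read against its rank, both axes on a log scale, with 7 genes marked. Right, cumulative share of the summed level (%) against the number of highest rows (log scale), with dashed lines where the share reaches 50% at 96 rows.

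The 6 genes chosen to mark this tissue were all far above the median row. The globin gene hba3, whose product carries oxygen in red cells, was the highest row of the table, with 256164 reads and 24370 TPM (95% Poisson interval 24276 to 24465). The translation elongation factor gene eef1a1, which delivers aminoacyl-tRNA to the ribosome, ranked 4 with 13347 TPM (13300 to 13394). Next came tpm1, the tropomyosin of the thin filament, with 12733 TPM (12676 to 12789). The mitochondrial ADP/ATP carrier gene slc25a5 ranked 6 with 11541 TPM (11491 to 11592). Among these 6 the myosin heavy chain gene myh6 had the most reads, 657555, but as a transcript of 5956 bp it ranked 9 by level, with 8297 TPM (8277 to 8317). The keratin gene krt8, an epithelial intermediate filament gene, stood well apart from the other 5, at rank 256 with 502 TPM. The name table calls this row krt8.1. Among these 6, the muscle, blood, translation and mitochondrial carrier genes stood high, and the epithelial keratin gene far below them. The 6 were chosen with earlier results of these data known, so their ranks do not test what led the profile.

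Of the 10 highest rows, 4 were contractile genes and 3 were globins. The 3 globin rows were hba3, hbd at 17492 TPM and hba2 at 8448 TPM. Besides tpm1 and myh6, the contractile rows were the cardiac actin gene actc1 at 9500 TPM and the light chain gene myl4, expressed in mammals mainly in the atria and the embryonic heart, at 7702 TPM. The remaining ones were eef1a1, slc25a5 and the row listed as aifm2. That row ranked 2 with 751574 reads and 18898 TPM, had the highest read count of the table, and was named for a flavoprotein of the mitochondrion and the plasma membrane. It was the only one of the 100 highest rows that belonged to no list. Whether its reads come from aifm2 was not tested, and shares without it are given among the alternatives. Ribosomal protein genes took over below rank 10, with 34 of the 50 highest rows and 67 of the 100 highest.

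The 21 functional lists together held 949 rows, or 10.7% of the table, and 72.0% of the level. Cytosolic ribosomal proteins led with 32.7% of the level. The contractile apparatus followed with 6.92%, globins with 6.31%, oxidative phosphorylation with 5.42% and translation factors with 4.10%. By reads, which give weight to long transcripts, ribosomal proteins took 16.3% (95% Wilson interval 16.30 to 16.34), the contractile apparatus 9.59% (9.58 to 9.61) and globins 3.60% (3.59 to 3.61). Translation factors took 5.20% of reads, so that they stood above globins on that scale. Ribosomal proteins led and the contractile list came next on both scales, with a smaller gap by reads. Chaperones, cytoskeletal actin and its binding proteins, and RNA-binding proteins each held between 2.12% and 2.20% of the level.

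**Figure D2:**
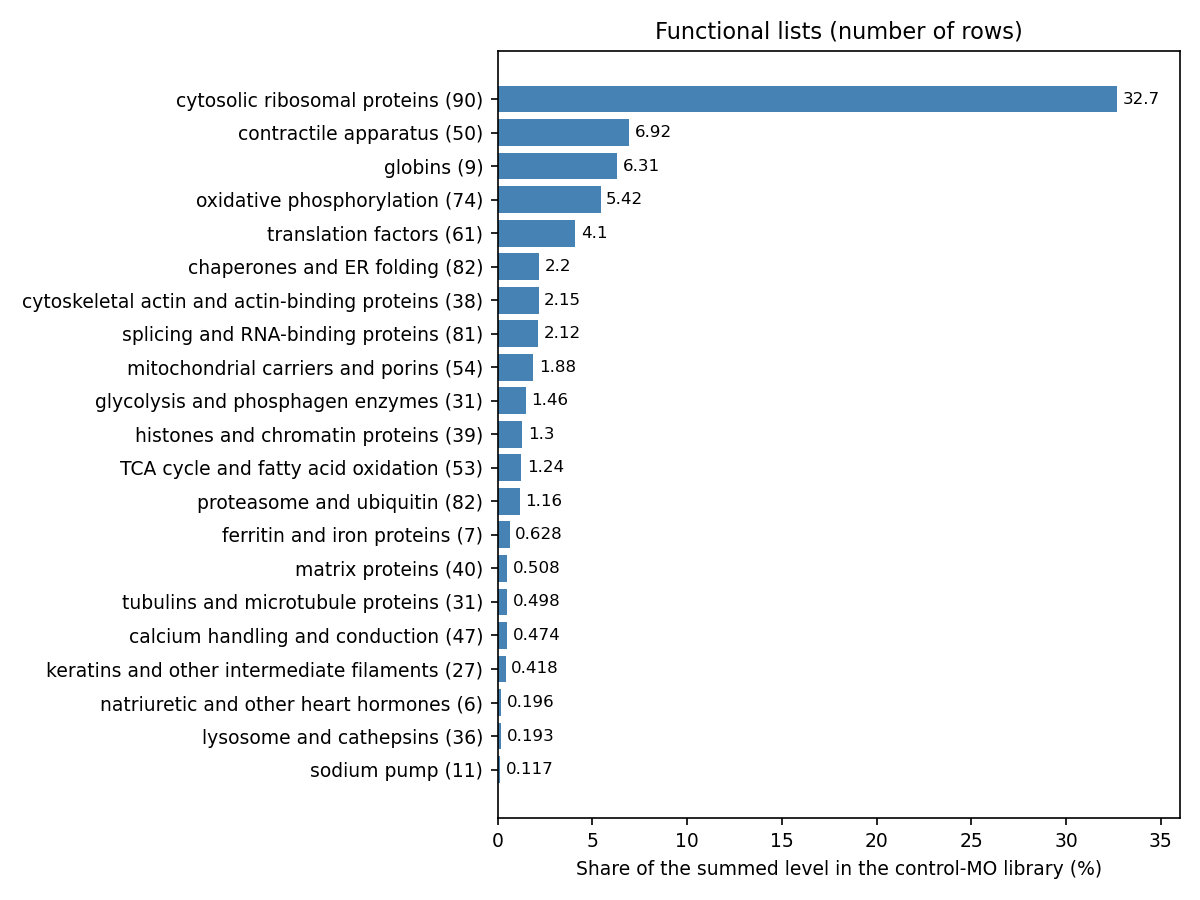
Share of the summed level of the control-MO library (%, bars start at 0) held by each of 21 functional lists, with the number of rows in each list in brackets. Ribosomal proteins held 32.7%, and the next list, the contractile apparatus, 6.92%.

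The sarcomere was carried by few genes. Of 50 contractile rows, 10 were at or above 1000 TPM, against 1.8% of all rows. At or above 100 TPM were 34 (68%), against 11.6% of all rows. The list median was 257 TPM, against 15.5 TPM over all rows. The thin filament genes tpm1 and actc1 stood highest. The 3 subunits of troponin, the calcium switch of the thin filament, lay close together, with 4855 TPM for the inhibitory subunit gene tnni3, 3500 TPM for tnnt2, which binds tropomyosin, and 2913 TPM for tnnc1, which binds calcium. In the thick filament, myh6 had 8297 TPM, myl4 7702 TPM, and the light chain gene myl3 8515 TPM over its S and L rows. The ratio to myh6 was 0.928 for myl4 and 1.03 for myl3. Levels of transcripts say nothing of how many protein copies each gives, and these ratios describe RNA only.

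Structural and regulatory proteins of the sarcomere were roughly an order of magnitude lower. The Z-disc cross-linker gene actn2 had 971 TPM and the small heat shock protein gene hspb7 1140 TPM. The mechanosensory LIM protein gene csrp3 had 900 TPM, the intermediate filament gene des 847 TPM for L and 447 TPM for S, and the myosin-binding protein gene mybpc3 637 TPM. At 374 TPM, the methyltransferase gene smyd1, needed for myosin assembly in vertebrate muscle, was the highest member of the cardiac transcription factor list as well. Lowest of the contractile rows were ankrd1, with 15 reads and 0.886 TPM, and a myosin row with 23 reads and 0.289 TPM, deposited under the symbol myh7 but myh15 by its accession in the name table.

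The cardiac troponins and cardiac actin stood far above their skeletal isoforms, while other pairs differed less or the other way. Cardiac tnni3 was 127-fold above the fast skeletal gene tnni2 (38.3 TPM), and cardiac tnnc1 was 67.9-fold above the fast skeletal gene tnnc2 (42.9 TPM). For troponin T the ratio of tnnt2 to the fast skeletal gene tnnt3 was 27.1, and for actin the ratio of actc1 to acta1 was 16.1. Reads of the near-identical actins can be shared between rows, so the actin values are uncertain. The slow skeletal rows were lower still, with 9.76 TPM for tnni1 and 5.41 TPM for tnnt1. Myogenic factors of skeletal muscle were low, from 4.56 TPM for the L row of myf6 to 0.203 TPM for the S row of myod1. The L row of myod1 had 0.738 TPM. The ventricular light chain gene myl2, abundant in the mammalian ventricle, had a single row with 482 reads and 48.5 TPM, which is below myl4 and myl3 and also below the fast skeletal light chain gene mylpf at 141 TPM. The alpha-actinin genes actn2 and actn3, of which actn3 is the form of fast skeletal fibres in mammals, had 971 and 271 TPM. Smooth muscle actin acta2 had 848 TPM, and the row listed as act3 (acta4 in the name table) had 638 TPM.

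**Figure D3:**
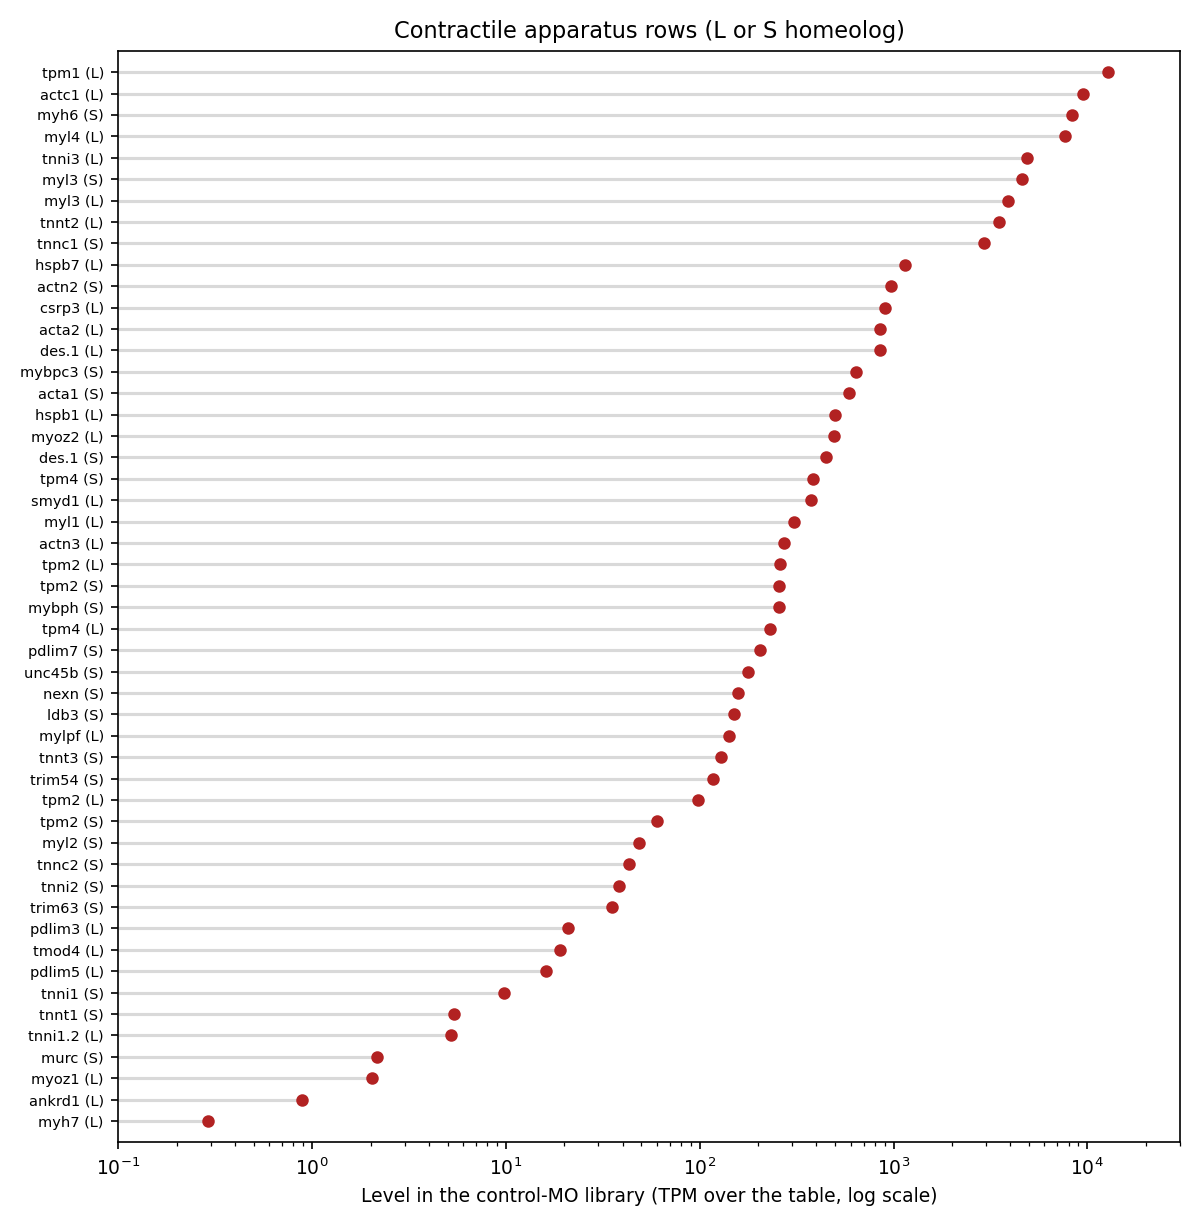
Level of each of 50 contractile rows in the control-MO library (TPM over the table, log scale), highest at the top, with the homeolog in brackets. The 9 highest rows, from tpm1 to tnnc1, lie between 2913 and 12733 TPM, and the next, hspb7, is at 1140 TPM.

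Ribosomal protein genes were high as a body and close to each other. Of 90 rows, 85 were at or above 1000 TPM and 88 at or above 100 TPM, against 1.8% and 11.6% of all rows. The median row had 3701 TPM and the highest, the L row of rps12, 7675 TPM. Other high rows were rpsa with 7330 TPM, rps2 with 6345 TPM and rps4x with 6075 TPM, all of the small subunit. The 2 rows at 0 reads were rpl3l, in mammals the striated muscle paralog of rpl3, and a further row named rpl19. Its namesake row had 4361 TPM, and whether these rows share sequence was not tested. Where rpl3l had 0 reads, rpl3 had 78969 reads and 4537 TPM.

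With copies of a gene summed, the 31 small subunit genes had a median of 4463 TPM and the 45 large subunit genes 4309 TPM. The level lay within 2-fold of the subunit's median for 29 of 31 small and 44 of 45 large subunit genes. The widest departures were rps12, at 10362 TPM with both copies, and rps21, at 1705 TPM. In the large subunit, levels ran only from 1903 TPM for rpl36 to 5753 TPM for rpl5. These genes code for proteins that stand in the ribosome mostly as single copies, and whether that bears on their RNA levels was not tested.

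Translation factors were led by eef1a1, followed by tpt1, a small growth-related protein listed here with them, at 5524 TPM. The translocase gene eef2.1 had 4012 TPM, so that eef1a1 was 3.33-fold above it. The exchange factor subunit genes eef1g and eef1b2 had 2691 TPM for the L row and 2146 TPM, and the hypusine-bearing factor gene eif5a had 1993 TPM. Initiation factors were an order of magnitude lower. The 12 genes of eIF3, the scaffold of the initiation complex, had a median of 345 TPM, with eif3d highest at 809 TPM and eif3j lowest at 126 TPM.

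Mitochondrial genes formed another large body of transcripts. Subunits encoded in the mitochondrial genome were not analysed here. Of 74 oxidative phosphorylation rows, 66 (89.2%) were at or above 100 TPM and 17 at or above 1000 TPM. Over all rows, these shares were 11.6% and 1.8%. The complexes differed in their medians. Complex IV, cytochrome c oxidase, had a median of 1752 TPM over 10 genes, and complex V, the ATP synthase, 1282 TPM over 12. Complex III had 791 TPM over 7 genes, complex I 448 TPM over 24 and complex II 410 TPM over 3. Complexes I and II, which feed electrons in, thus had lower medians than complexes III and IV downstream, and than complex V.

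Within complex V the level followed no single value. The membrane ring gene atp5g3 had 3562 TPM, the catalytic beta subunit gene atp5b 3312 TPM and the alpha subunit gene atp5a1 2499 TPM. Alpha and beta are each present several times in the enzyme, as is the ring subunit, and whether that bears on RNA levels was not tested. Most other subunits lay between 870 TPM for the second ring gene atp5g1 and 1392 TPM for atp5d. The only lower one was atp5s, an accessory factor, at 35.4 TPM. In complex IV the lowest rows were cox6a2, the heart and skeletal muscle isoform in mammals, which had 0 reads, and cox5b (the row cox5b.2) at 79.0 TPM. The other isoform, cox6a1, had 2106 TPM with both copies. Cytochrome c itself, cycs, had 2298 TPM.

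**Figure D4:**
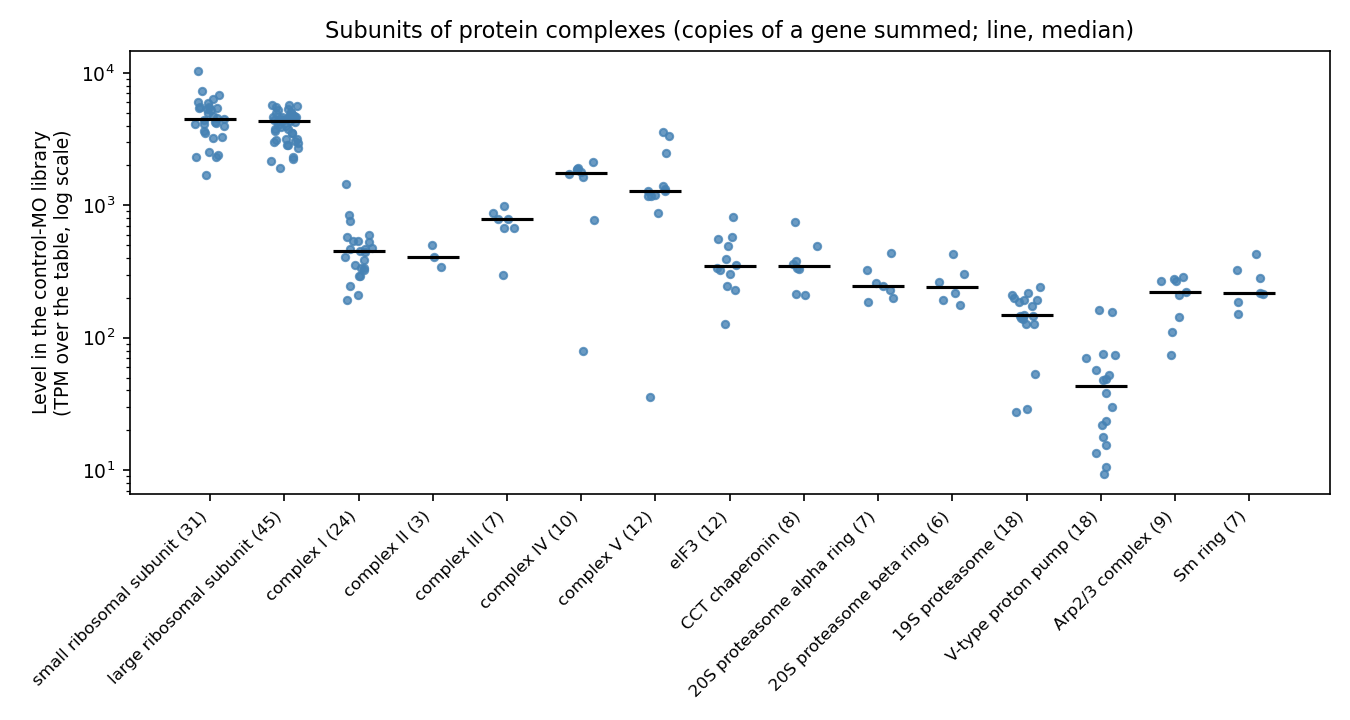
Levels in the control-MO library (TPM over the table, log scale) of the genes of 15 protein complexes, with copies of a gene summed, the number of genes in brackets, 1 point per gene with reads and a line at the median over all genes. Ribosomal subunits lie highest, near 4463 and 4309 TPM, and the V-type proton pump lowest, at 43.0 TPM. The complex IV gene cox6a2 had 0 reads and has no point.

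The carrier that exchanges ADP for ATP across the inner membrane was represented almost wholly by slc25a5. Its 202091 reads compare with 24 for slc25a4, the main form in adult mammalian heart, which had 1.64 TPM. The outer membrane pore gene vdac2 had 2071 TPM and the phosphate carrier gene slc25a3 1513 TPM. Most of the 54 carrier, porin and import rows were far lower, and the list median was 29.5 TPM. In this list 3 rows therefore held most of the level.

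Fuel enzymes were present for fat, carbohydrate and the tricarboxylic acid (TCA) cycle. Of 53 rows for the TCA cycle and fatty acid oxidation, 39 were at or above 100 TPM, against 11.6% of all rows. At or above 1000 TPM lay 1.8% of all rows, and in this list only idh2, with 1900 TPM. It makes NADPH from isocitrate in the mitochondrion. The next rows were mdh1 at 777 TPM and suclg1 at 712 TPM. Fatty acid genes were lower, with acadm, the medium-chain dehydrogenase, at 412 TPM and the heart-type fatty acid binding protein gene fabp3 at 301 TPM. The gate enzyme gene of mitochondrial fat uptake, cpt1b, had 144 TPM.

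In glycolysis, gapdh had 2774 TPM and aldoc 1722 TPM. The aldolase gene aldoa, the muscle form in mammals, was lower at 344 TPM. Lactate dehydrogenase had 1197 TPM for ldhb and 83.7 TPM for ldha over both copies, a ratio of 14.3, and a further row listed as ldhc had 11609 reads and 822 TPM. The B subunit is the heart form in mammals. The creatine kinase genes ckm and ckb, which buffer ATP through phosphocreatine, had 2650 and 1911 TPM, a ratio of 1.39. The skeletal muscle enolase gene eno3 had 25 reads and 1.16 TPM, while eno1 had 443 TPM for its L row.

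Red cell transcripts were a large component. The 9 globin rows summed to 63122 TPM, and 5 of them held nearly all of it, namely hba3, hbd, hba2, hba-l5 with 6356 TPM and hbe1 with 5883 TPM. Of the others, hbg2 had 524 TPM, hba1 22.9 TPM, hbz 17.9 TPM and hbg1 7.58 TPM. Rows named as alpha type summed to 39215 TPM and those named as beta type to 23907 TPM, a ratio of 1.64. Globin rows resemble each other, and the split between them is uncertain. Of the 22 erythroid rows that are no globins, 6 (27.3%) were at or above 100 TPM, against 11.6% of all rows. The carbonic anhydrase gene ca2 had 923 TPM, alas2, which starts heme synthesis in red cells, 339 TPM, and the anion exchanger gene slc4a1 170 TPM. The erythroid transcription factor gene gata1 had 24.7 TPM for S and 13.3 TPM for L. Over 31 erythroid rows, globins included, the sum was 65767 TPM, of which the globins made up most. Of these rows 0 lacked reads, but at the 3.47% of all rows a list this short would hold few such rows. In pooled organs, the number of cells of a type and the RNA per cell cannot be told apart.

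The cytoskeleton of non-muscle cells was led by actb at 4153 TPM and tmsb4x, an actin-sequestering peptide gene, at 3526 TPM. The actg1 rows had 2545 TPM for L and 1874 TPM for S. Among intermediate filaments, vim, typical of mesenchyme, had 1171 TPM for L and 221 TPM for S, krt19 899 TPM and krt12 412 TPM. In the matrix list, 9 of 40 rows (22.5%) were at or above 100 TPM, against 11.6% of all rows, and the list held 0.508% of the level. Its highest row was sparc, a collagen-binding glycoprotein gene, at 2239 TPM. The fibrillar collagen genes col1a2, col3a1 and col1a1 had 294, 248 and 203 TPM, and the basement membrane collagen gene col18a1 275 TPM.

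Chaperone and RNA-binding genes included several of the highest rows outside the ribosome. The prolyl isomerase gene ppia had 4239 TPM, and the Hsp70 family row hspa1l 4102 TPM, above the 1102 TPM of hspa8. The cold-shock domain gene ybx1 had 3789 TPM, and cirbp, a cold-inducible RNA-binding protein gene, had 3416 TPM for S and 3051 TPM for L. The chromatin protein gene hmgn2 had 2808 TPM. The ferritin heavy chain gene fth1, the iron store of the cell, had 3971 TPM for S and 2158 TPM for L. Genes of the CCT chaperonin, which folds actin and tubulin, lay between 209 TPM for cct2 and 750 TPM for cct5. The genes of the alpha and beta rings of the proteasome core had medians of 248 and 240 TPM.

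Most membrane and signalling genes of the cardiomyocyte were far less abundant than its filaments. In the list of calcium handling and conduction, 10 of 47 rows (21.3%) were at or above 100 TPM, against 11.6% of all rows, but the median was 3.56 TPM, below the 15.5 TPM of all rows. The Popeye gene bves, a membrane protein of heart and muscle, led with 1035 TPM for L and 691 TPM for S, followed by popdc2 with 522 TPM. The calcium pump of the sarcoplasmic reticulum, atp2a2, had 195 TPM, 3.63-fold above the skeletal form atp2a1. Channels were low, for example kcnq1 at 22.4 TPM and gja1 at 0.862 TPM, and 8 of the 47 rows had 0 reads, against 3.47% of all rows. The natriuretic peptide genes nppa and nppb, hormones that heart muscle secretes, had 1069 and 856 TPM.

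Transcription factors of the heart lay mostly between 10 and 150 TPM. Of 49 rows, 6 were at or above 100 TPM (12.2%, against 11.6% of all rows), and the median of 18.6 TPM was close to that of the table. Apart from smyd1, which is a methyltransferase, the highest was the T-box gene tbx20 with 3266 reads and 141 TPM. Of the GATA factors, which switch on heart genes in the embryo, gata5 was highest, with 138 TPM for S and 97.9 TPM for L. The gata6 rows had 81.6 and 66.4 TPM and the gata4 rows 70.8 and 34.9 TPM, for L and S in each case. The basic helix-loop-helix genes hand2 and hand1 had 134 TPM for the L row and 110 TPM. The homeobox gene nkx2-5 had 102 TPM for S and 49.4 TPM for L, and tbx5 had 51.2 TPM. The progenitor gene isl1 was low, with 102 reads and 3.33 TPM.

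As in the whole table, most epicardial and endothelial rows lay below 100 TPM. Of 18 epicardial rows, krt8 and krt18 (118 TPM for L) passed 100 TPM, or 11.1%, close to the 11.6% of all rows, and tcf21, aldh1a2, wt1 (L row) and lhx9 had 89.8, 47.2, 13.2 and 6.70 TPM. Keratin and GATA genes of this list are also expressed outside the epicardium. Endothelial genes were led by lmo2 at 109 TPM, which blood progenitors express too, and by the L row of the apelin receptor gene aplnr at 101 TPM, and ended with flt1 at 0.874 TPM. Of 15 endothelial rows, only these first 2 were at or above 100 TPM, close to the 11.6% of all rows. Proliferation genes were present, with pcna, the sliding clamp of DNA polymerase, at 456 TPM and the mitotic kinase gene cdk1 at 132 TPM for L and 115 TPM for S. Only 4 of the 55 cell cycle rows were at or above 100 TPM, against 11.6% of all rows, and the list median was 26.4 TPM. The mki67 row had 12.2 TPM and the mcm3 row 0 reads. In the smooth muscle and fibroblast list, led by acta2, 7 of 13 rows (53.8%) were at or above 100 TPM, against 11.6% of all rows. Its highest rows, acta2 and des (L and S), also belonged to the contractile list.

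Markers of several organs near the heart were low, while the skin and skeletal muscle lists held higher rows. None of 42 liver rows reached 100 TPM, against 11.6% of all rows, the highest being rbp4 at 33.7 TPM, and the main plasma protein gene alb had 2 reads in 1 row and 0 in the other. Of 26 foregut, pancreas and lung rows, 15 were under 1 TPM, against 12.1% of all rows, and both ins rows had 0 reads. Of 6 pronephros rows, 5 were under 1 TPM. Among 34 neural and glial rows the highest was tubb2b at 79.6 TPM, and 26 were under 10 TPM, against 38.8% of all rows. The leukocyte list was led by the granule enzyme gene mpo at 69.9 TPM. Of 5 thrombocyte, 9 cartilage and 22 ciliated cell rows, 0 reached 100 TPM, but at the 11.6% of all rows lists this short would hold few such rows. Their highest rows were thbs1 at 61.9 TPM, the L row of col2a1 at 80.1 TPM and tuba1a at 57.1 TPM. In the epidermal list, 6 of 26 rows (23.1%) were at or above 100 TPM, against 11.6% of all rows, with krt19, krt12 and the secreted lectin gene itln1 (118 TPM) among them. In the skeletal muscle list, 7 of 20 rows were at or above 100 TPM, against 11.6% of all rows. The highest were ckm and acta1, both also expressed in heart muscle. Below them came pgam2 at 377 TPM, actn3 at 271 TPM, mylpf at 141 TPM, tnnt3 at 129 TPM and pygm at 110 TPM. The part that carried-over tissue had in these levels was not tested.

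**Figure D5:**
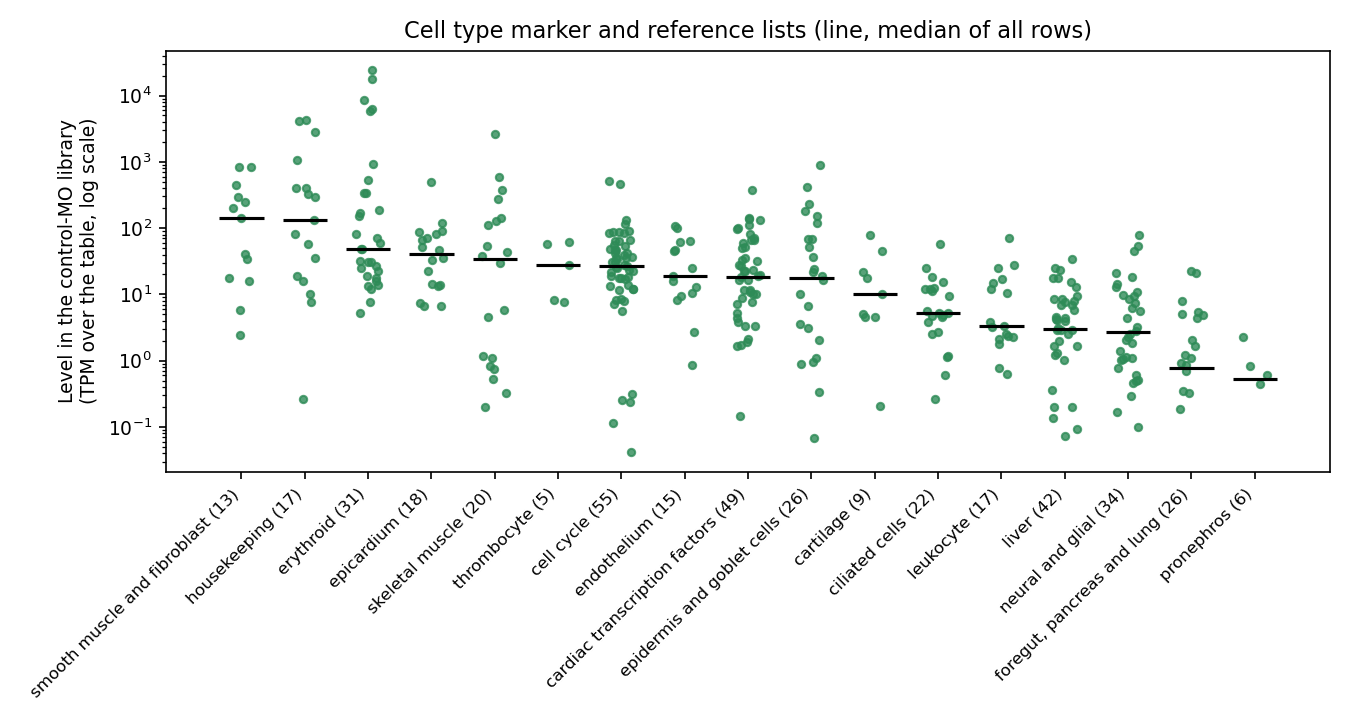
Levels in the control-MO library (TPM over the table, log scale) of rows in 17 marker and general lists, sorted by median, with the number of rows in brackets, 1 point per row with reads and a line at the median over all rows of the list. Rows with 0 reads have no point. Erythroid rows reach 24370 TPM, while liver, pancreas and pronephros rows reach at most 33.7 TPM.

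Rows outside all 38 lists held 27.0% of the level. After aifm2, the highest was the S row of sec61g, a subunit of the channel through which proteins enter the endoplasmic reticulum, with 2359 TPM. Next came a row named rps28p9, with 1985 TPM, which was not counted in the ribosomal protein list. The row listed as itgb1bp3 had 1723 TPM. The name table calls it nmrk2, a kinase of NAD synthesis that is muscle-enriched in mammals. Other rows in this range were oaz1, the inhibitor of polyamine synthesis, with 1495 TPM, naca.2, which binds nascent chains, with 1430 TPM, and the L row of the nucleoside diphosphate kinase gene nme2 with 1425 TPM. The RNA-binding protein gene rbpms2 had 864 TPM and the muscle gene smpx 469 TPM. These rows were named after their values were seen.

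Short transcripts dominated the level. Over all rows, level and length had a rank correlation of -0.17, a description across rows that share 1 library. The level is divided by length, so a negative relation can arise in part by construction. Of 4 length classes of nearly equal size, the shortest, from 278 to 1405 bp, held 67.5% of the level and 41.1% of the reads. It held 132 of the 160 rows at or above 1000 TPM. The longest class, from 2856 to 13130 bp, held 8.30% of the level but 23.8% of the reads. Without ribosomal and globin rows, the shortest class still held 46.7%. The median length was 766 bp for rows at or above 1000 TPM and 2083 bp for rows from 10 to under 100 TPM.

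Both subgenomes supplied the profile. Rows named L numbered 5143 and held 52.9% of the level, and rows named S numbered 3168 and held 42.0%, with medians of 15.2 and 16.8 TPM. Most of these rows had no row for the partner copy, so the shares also depend on which copy has a row. A pair of L and S rows was present for 648 genes, of which 589 had at least 20 reads in sum. The L row was the higher in 319 of these pairs and the S row in 270. The higher row exceeded the lower by a median of 1.62-fold, and by at most 2-fold in 62.0% of pairs. In 63 pairs the difference exceeded 5-fold. Among abundant pairs, cirbp was nearly even, at 1.12-fold, while sec61g favoured S by 8.90-fold and eef1g favoured L by 6.92-fold. Reads of similar copies may have been split or shared, so these ratios are uncertain. Whether all 59977 reads of the sec61g S row, 1911 bp long, come from sec61g was not tested.

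The rank order was close to that of the Tcf21-MO hearts, with exceptions among the highest rows. Across the 8879 rows the rank correlation of levels between the libraries was 0.98, where rows are not replicates. Of the 100 highest control-MO rows, 90 were among the 100 highest Tcf21-MO rows, but of the 10 highest only 5 were. The hba3 row had 6686 TPM (rank 12) in the Tcf21-MO and 24370 TPM (rank 1) in the control-MO library, and hbd had 4290 TPM in the Tcf21-MO and 17492 TPM in the control-MO library. The myh6 row ranked 34 with 4961 TPM in Tcf21-MO and 9 with 8297 TPM in control-MO hearts. The aifm2 row had 18889 TPM in Tcf21-MO and 18898 TPM in control-MO hearts. For tpm1 the levels were 10837 TPM in Tcf21-MO and 12733 TPM in control-MO hearts, and for slc25a5 12614 TPM in Tcf21-MO and 11541 TPM in control-MO hearts.

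In shares of the level, globin rows held 1.64% in the Tcf21-MO and 6.31% in the control-MO library, and contractile rows 5.29% in the Tcf21-MO and 6.92% in the control-MO library. Ribosomal protein rows held 37.0% in the Tcf21-MO and 32.7% in the control-MO library, and oxidative phosphorylation rows 6.37% in the Tcf21-MO and 5.42% in the control-MO library. Levels sum to a fixed total in each library, so these shares are not independent of each other. Chaperones held 2.18% in Tcf21-MO and 2.20% in control-MO hearts, and proteasome and ubiquitin genes 1.17% in Tcf21-MO and 1.16% in control-MO hearts. None of these differences has a replicate check.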

How the data were processed

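RNA sequencing had been done on 1 library of control-MO and 1 of Tcf21-MO hearts, grouped by the label that names the injected morpholino. The authors deposited whole-number read counts for 8879 RefSeq transcripts, not normalized, with another kind of value, the transcript length in bp, per the file headers. Bowtie2 2.0.0.6, SAMtools 0.1.18.0 and CASAVA 1.7 are listed, with no order, per the submitters' processing notes. Not given in the sources used here are the build, the counting rule, the use of strand and the handling of reads that match several rows. Such handling affects paralogs, homeologs and overlapping genes.

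Each control count was divided by its length and scaled to 1000000 over all rows (pandas 2.3.3 and NumPy 2.4.6 in Python 3.11.15; SciPy 1.17.1 for intervals and matplotlib 3.10.9 for plots). Exact Poisson intervals were used for levels and Wilson intervals for shares of reads, at 95%. The calculation was checked on simulated data. Symbols are those of the deposited table. The name table (assembly version 10.1) matched 8315 accessions and gave the L and S endings. No test was made, because there was 1 library per group. Members and the 38 lists were chosen with earlier results of these data known, and rows that matched a list's pattern but are other genes were removed after symbols were seen. The genes named were the 40 highest rows, the 6 markers, tcf21, the 5 highest and the lowest row of each list and their homeologs. Rows given to complete an isoform pair or a complex were added after values were seen. A few rows that this rule names are not reported here.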

Additional observations from a re-analysis of the deposited data

How the results depend on the processing

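Without division by length, 174 rows held 50% of the total, the 10 highest rows held 16.9%, the contractile list 9.59% and ribosomal proteins 16.3%, and 24 of the 40 highest rows were shared with the reported order. By construction this scale favours long transcripts. With 200 bp taken off each length, these 3 shares were 12.8%, 6.25% and 37.9%. They were 11.9%, 7.09% and 33.5% without the highest row, and 11.1%, 7.39% and 34.9% without globin rows. Without the aifm2 row, an alternative chosen after seeing the data, they were 12.3%, 7.05% and 33.3%. With the rows of a symbol summed, the 10 highest held 13.5%. With the removed rows kept in the lists, also chosen after seeing the data, the contractile list held 6.95%. The number of rows for 50% ran from 86 to 104 in the settings that divide by length. Of 76 recomputed levels of 10 genes, 71 stayed within 1.5-fold. The other 5, those of hba3, hbd, aifm2, myh6 and krt8, moved further without length division, where myh6 rose 4.49-fold. No paired analysis was possible because each group has 1 library. Depth limits values near 3 reads.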
